A study of Homo sapiens with 15 samples.

Results

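The genes described here are 8 genes of cholesterol balance, HMGCS1, INSIG1, SQLE, IDI1, FDFT1, SREBF2, ABCA1 and STARD4. They were chosen by their symbols from the 37787 genes of the deposited count table, with earlier results of these data known. All 8 passed the filter on low counts and are among the 13868 genes tested. They were measured in HGrC1, an immortalized human granulosa cell line at passage 14, in 5 conditions of 3 cultures each (replicates A, B and C), after a 4 h lipofection and a further 24 h in medium without serum. Vectors cells received empty plasmids. FOXL2WT cells received SMAD3 and wild-type FOXL2, and FOXL2C134W cells received SMAD3 and the FOXL2 mutant of adult granulosa cell tumors. FOXL2WT+FOXO1 and FOXL2C134W+FOXO1 cells received in addition FOXO1-3A, a FOXO1 form that stays active in the nucleus. The SMAD3 plasmid was therefore given in every condition but Vectors. In a comparison with Vectors the effects of SMAD3, FOXL2 and FOXO1 thus cannot be told apart. The plasmids were expressed transiently and in addition to the cells' own genes, all cultures were of a single cell line, and nothing in the labels says whether A, B and C were set up on separate days, so the p-values measure the spread between these cultures.

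Cells make cholesterol from acetyl-CoA through the mevalonate pathway, take it up in lipoproteins and export the excess. The membrane-bound transcription factor SREBP2, the product of SREBF2, responds to the sterol level of the endoplasmic reticulum. When sterol is low, the active fragment of SREBP2 reaches the nucleus and turns on the genes of synthesis and uptake. It usually acts from sterol regulatory elements that lie beside NF-Y boxes. INSIG1 holds the SREBP complex back when sterol is plentiful and is itself an SREBP target. When sterol derivatives accumulate, the nuclear receptor LXR turns on ABCA1, the pump that loads cholesterol on lipid-poor apolipoprotein A-I. In granulosa cells cholesterol is also the precursor of steroid hormones. No receptor of lipoprotein uptake is among the 8 genes. STARD4, a soluble sterol carrier within the cell, is the nearest to that role.

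The proximal promoters of INSIG1, ABCA1, SREBF2 and IDI1 are shown because INSIG1 and ABCA1 were the members called between the FOXL2 forms, SREBF2 was called in no comparison, and IDI1 stands for the synthesis enzymes. Each run is the 250 bases before the transcription start, 5′ to 3′ on the strand of the gene, from RefSeq on GRCh38.p14. Capitals mark matches, on either strand, to the letters TCACNCCA (core of a sterol regulatory element), CCAAT (NF-Y box), CACGTG (E-box) and TGTTTAC (forkhead motif).
INSIG1, chr7:155297628-155297877, plus strand: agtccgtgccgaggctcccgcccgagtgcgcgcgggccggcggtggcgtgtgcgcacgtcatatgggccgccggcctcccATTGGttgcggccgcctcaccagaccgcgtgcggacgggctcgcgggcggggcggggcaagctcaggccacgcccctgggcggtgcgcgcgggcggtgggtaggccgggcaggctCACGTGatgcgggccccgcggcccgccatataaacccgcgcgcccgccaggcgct
ABCA1, chr9:104928156-104928405, minus strand: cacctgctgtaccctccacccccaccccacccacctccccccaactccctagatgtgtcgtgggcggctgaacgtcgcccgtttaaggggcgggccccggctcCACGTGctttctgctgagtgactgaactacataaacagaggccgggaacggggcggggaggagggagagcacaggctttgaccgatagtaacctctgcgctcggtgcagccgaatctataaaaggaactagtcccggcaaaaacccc
SREBF2, chr22:41832855-41833104, plus strand: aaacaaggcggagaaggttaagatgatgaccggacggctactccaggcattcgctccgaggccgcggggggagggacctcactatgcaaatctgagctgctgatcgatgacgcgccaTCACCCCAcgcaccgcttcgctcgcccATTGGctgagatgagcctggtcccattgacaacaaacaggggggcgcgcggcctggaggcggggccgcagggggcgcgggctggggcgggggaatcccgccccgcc
IDI1, chr10:1049120-1049369, minus strand: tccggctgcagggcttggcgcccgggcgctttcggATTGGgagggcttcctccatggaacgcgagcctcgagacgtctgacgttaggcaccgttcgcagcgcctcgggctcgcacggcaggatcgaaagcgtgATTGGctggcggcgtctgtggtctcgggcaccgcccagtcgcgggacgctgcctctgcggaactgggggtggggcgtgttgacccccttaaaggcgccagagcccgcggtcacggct

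In the INSIG1 promoter, a reversed NF-Y box began 170 bases and an E-box 55 bases before the start. In ABCA1 only an E-box was marked, 147 bases before the start. SREBF2 held the sterol element TCACCCCA 133 bases and a reversed NF-Y box 106 bases before its start, and IDI1 held 2 reversed NF-Y boxes, 215 and 117 bases before its start. None of these matches overlapped another. Windows of 300 bases, which run 50 bases past the start, were found for 6 of the 8 members. Of these 6, HMGCS1 and STARD4 each held 2 NF-Y boxes as well, so that ABCA1 was the only one without that box, and SREBF2 the only one with the sterol element. No forkhead motif was found in the 6 windows. Over all 35116 promoter windows of the table, 3.95% held the sterol element, 34.6% the NF-Y box, 7.26% the E-box and 3.42% the forkhead motif. The INSIG1 run reaches into the annotated span of the gene, whose outermost start lies upstream of the one used here. These are matches of letters, not measured binding sites.

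On the GENCODE 44 annotation of GRCh38, ABCA1 spans chr9:104781006-104928155 on the minus strand, HMGCS1 chr5:43287470-43313512 on the minus strand, STARD4 chr5:111496033-111512590 on the minus strand, IDI1 chr10:1039152-1049119 on the minus strand, INSIG1 chr7:155297776-155310235 on the plus strand and SREBF2 chr22:41833105-41907306 on the plus strand. SQLE and FDFT1 lie on chromosome 8.

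Library totals ran from 14962245 to 25339094 estimated counts, and the 8 members had between 126 counts (ABCA1) and 4041 counts (FDFT1) in a library. Levels are given as CPM, the counts of a gene relative to the library total after scaling with TMM factors. FOXL2 rose from 8.28 to 9.54 CPM in Vectors to between 554.1 and 566 CPM in FOXL2WT, but only to between 121 and 175 CPM in FOXL2C134W. With FOXO1 added it was 374 to 401 CPM for the wild type and 139 to 176 CPM for the mutant. SMAD3 was at 240 to 263 CPM in Vectors, 2595 to 2889 CPM in FOXL2WT, 812 to 885 CPM in FOXL2C134W, 957 to 976 CPM in FOXL2WT+FOXO1 and 379 to 411 CPM in FOXL2C134W+FOXO1. FOXO1 was at 11.6 to 13.8 CPM without its plasmid, 104 to 133 CPM with it beside FOXL2WT and 39.1 to 47.2 CPM beside FOXL2C134W. The mutation and the lower plasmid-borne RNA in the FOXL2C134W conditions cannot be told apart. These are RNA levels, whereas the paper describes the protein of FOXL2WT, FOXL2C134W and FOXO1 as balanced, from an immunoblot of parallel cultures. The share of mitochondrial transcripts was 0.27% to 0.319% in FOXL2C134W and 0.22% to 0.258% in the other conditions.

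Granulosa markers were partly present. GATA4 was at a mean of 133 to 149 CPM, WT1 at 41.6 to 44.5, FST at 41.7 to 46.1 and NR5A1 at 5.14 to 5.87 CPM over the conditions, whereas FSHR had 0 counts in every library and CYP19A1 at most 4. The summed level of the 15 granulosa markers was 251 to 264 CPM in Vectors and 239 to 260 CPM in the other conditions. The summed levels of the 4 epithelial, 4 endothelial and 4 leukocyte markers were higher in Vectors (401 to 406, 19.2 to 22.5 and 104.5 to 118 CPM) than in the other conditions (342 to 395, 13.1 to 18.0 and 90.6 to 98.7 CPM). Of the granulosa markers, GATA4 and HSD17B1 were called in FOXL2WT against Vectors, 1 of them higher and 1 lower, and CYP11A1 was called lower in FOXL2WT+FOXO1. Of the others, CLDN4 and CD68 were called lower in each of the 4 comparisons with Vectors, KDR in both FOXL2C134W conditions and KRT19 in FOXL2C134W. The defining leukocyte marker PTPRC had at most 5 counts. The 3 theca and luteal markers summed to at most 0.202 CPM, with LHCGR at 0. The part of these levels in the results below was not tested.

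Between genes, levels are compared on the per-length scale, as TPM, the share of a transcript among all transcripts after correction for length and depth, summed over the transcripts of a gene. In Vectors, FDFT1, squalene synthase, was the highest at 185 ± 5.22 TPM (SD, n = 3). IDI1, the isopentenyl diphosphate isomerase, followed at 64.0 ± 4.28 TPM and SQLE, squalene epoxidase, at 51.5 ± 2.95 TPM. HMGCS1, the cytosolic HMG-CoA synthase, was at 32.3 ± 1.02, SREBF2 at 29.5 ± 5.35 and STARD4 at 26.9 ± 0.902 TPM, and in this stretch each gene's libraries overlapped with those of the next. INSIG1 was at 19.97 ± 1.63 TPM, and ABCA1 was the lowest at 1.75 ± 0.0402 TPM. The order FDFT1, IDI1, SQLE at the top and STARD4, INSIG1, ABCA1 at the bottom was the same in all 5 conditions. Only HMGCS1 and SREBF2 exchanged places: SREBF2 stood above HMGCS1 without overlap in FOXL2WT, at 29.9 ± 2.68 against 25.0 ± 1.13 TPM, and their libraries overlapped in the other conditions.

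**Figure D1:**
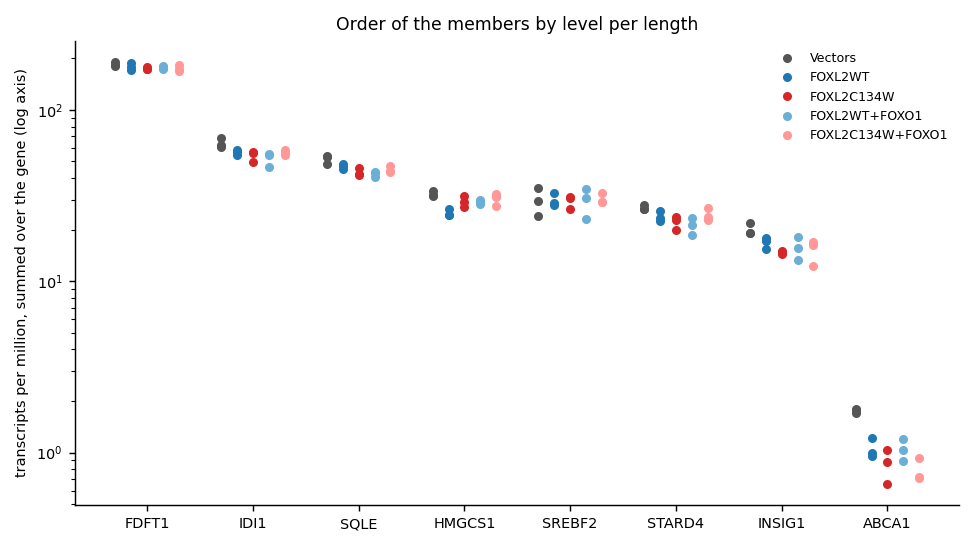
Level per length of the 8 members in every library, as summed TPM on a log axis, with a colour for each condition and genes ordered by their mean in Vectors. FDFT1 lies at the top in every condition and ABCA1 at the bottom, at 1.75 TPM on average in Vectors, while HMGCS1, SREBF2 and STARD4 lie close together.

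Most of the RNA of each gene was assigned to a few transcripts. ABCA1-202 carried 95.4% of the TPM of ABCA1 and IDI1-201 89.1% of that of IDI1, as means over all libraries. HMGCS1-202 carried 72.7% and the short retained-intron transcript HMGCS1-204 25.5%. The share of HMGCS1-204 was 22.3% ± 2.41 in Vectors, 19.7% ± 2.84 in FOXL2WT, 25.3% ± 3.97 in FOXL2C134W, 29.1% ± 10.4 in FOXL2WT+FOXO1 and 31.2% ± 3.01 in FOXL2C134W+FOXO1 (SD, n = 3). SREBF2 had a retained-intron transcript of the same kind, SREBF2-204, at 26.0% beside the full SREBF2-201 at 49.9%, and FDFT1 was spread over several forms, with FDFT1-209 at 26.6%. Another short retained-intron transcript, SREBF2-206, had 17.1% ± 14.9 of the TPM of SREBF2 in FOXL2WT and 0% in Vectors and FOXL2C134W. It had 8.96% ± 15.5 in FOXL2WT+FOXO1 and 2.46% ± 4.26 in FOXL2C134W+FOXO1. This share enters the place of SREBF2 above HMGCS1 in FOXL2WT. These shares are estimates from single-end reads and were not tested.

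The comparisons with Vectors ask how the cholesterol genes respond to SMAD3 with either FOXL2 form. Without FOXO1, 4 of the 8 members were lower in FOXL2WT and 6 of 8 in FOXL2C134W, and none was higher (edgeR quasi-likelihood test, Benjamini-Hochberg adjusted p under 0.05 over all genes). Over all genes tested, 3.61% were called lower in FOXL2WT and 7.24% in FOXL2C134W. Since the members were chosen with earlier results of these data known, their counts beside such shares only describe them. ABCA1 fell by 38.6% in FOXL2WT and fell by 53.9% in FOXL2C134W, the largest changes among the members in either condition. INSIG1 fell by 16.2% and fell by 31.6% in the same order. Of the synthesis enzymes, HMGCS1 and IDI1 fell in both conditions and SQLE in FOXL2C134W, as did STARD4. FDFT1 and SREBF2 passed the test in neither. In FOXL2WT the libraries of 7 members, all but FDFT1, did not overlap with Vectors, beside 31.1% of all genes. In FOXL2C134W those of 7 members, all but SREBF2, did not overlap, beside 31.8% of all genes. Leaving out a library lowered the shares of all genes called lower to between 1.2% (without Vectors A) and 2.83% in FOXL2WT and to between 4.64% (without FOXL2C134W B) and 6.78% in FOXL2C134W. These comparisons share the 3 Vectors libraries. In such bulk RNA, fewer cells with a transcript and less of it per cell cannot be told apart.

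**Figure D2:**
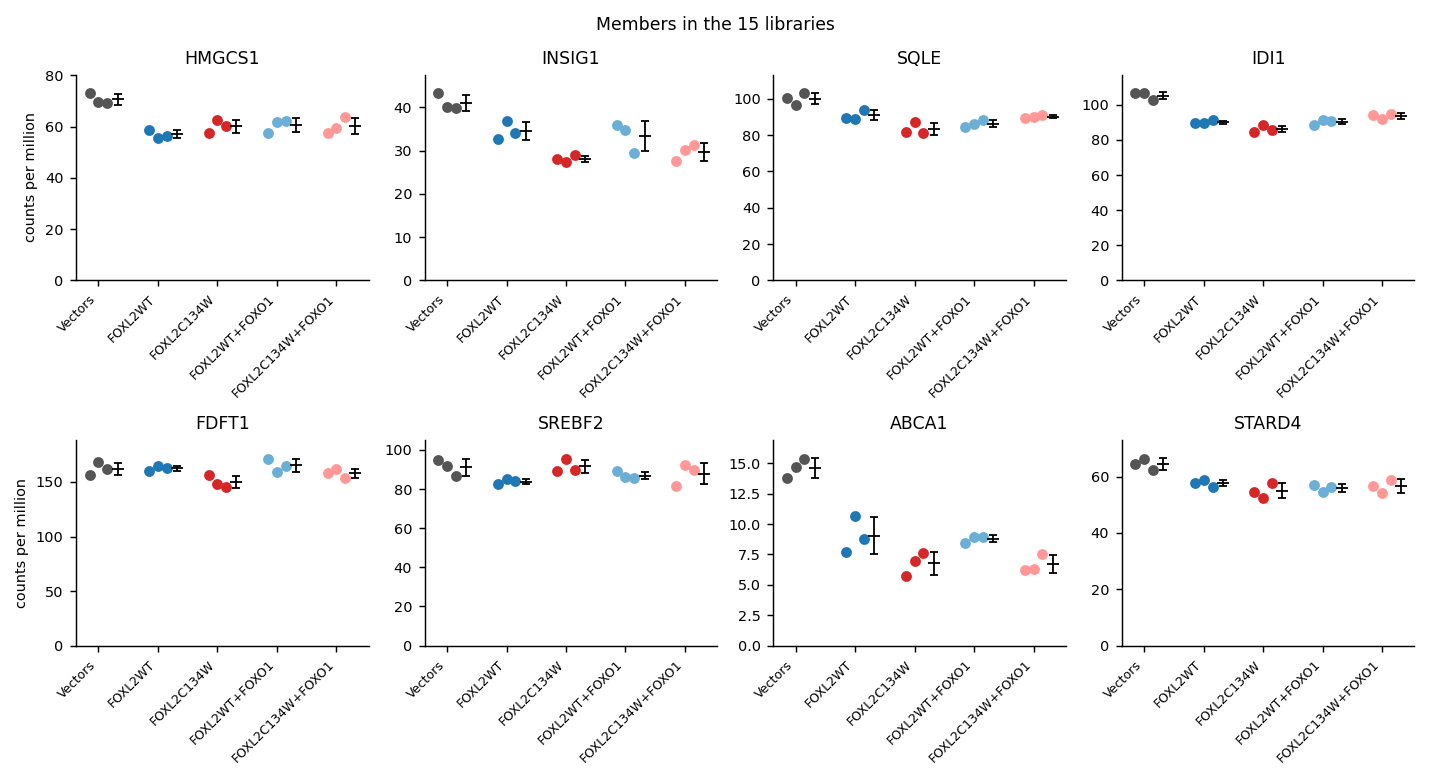
Level of each member in the 15 libraries in CPM, from 0, with a point for each library and a bar for the mean and SD of the 3 libraries of a condition. The Vectors libraries of ABCA1, INSIG1, HMGCS1, IDI1, SQLE and STARD4 lie above all other libraries, beside 22.7% to 31.8% of all genes that do not overlap in a comparison with Vectors, whereas those of FDFT1 and SREBF2 lie among them.

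ABCA1, the efflux pump, was at 13.8, 14.7 and 15.4 CPM in Vectors, at 7.72, 10.7 and 8.76 CPM in FOXL2WT and at 5.74, 6.94 and 7.60 CPM in FOXL2C134W. Both conditions lay wholly below Vectors. The log2 fold change was -0.70 (SE 0.114, adjusted p = 0.0011) in FOXL2WT and -1.12 (SE 0.115, adjusted p = 4.7e-06) in FOXL2C134W. Among all 13868 genes, the latter was rank 75 from the lowest log2 fold change. Both calls held in each of the 14 alternative fits made for each comparison.

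INSIG1, which retains SREBP in the endoplasmic reticulum, was at 43.3, 40.1 and 39.8 CPM in Vectors, at 32.6, 36.8 and 34.0 CPM in FOXL2WT and at 28.0, 27.4 and 28.9 CPM in FOXL2C134W. Its 3 conditions formed 3 separate ranges, with FOXL2C134W the lowest. The log2 fold change against Vectors was -0.55 (SE 0.072, adjusted p = 5.2e-05) in FOXL2C134W. It was -0.26 (SE 0.072, adjusted p = 0.042) in FOXL2WT, a call that was lost when any of the 6 libraries was left out, with adjusted p between 0.058 and 0.21.

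HMGCS1, which makes HMG-CoA early in the mevalonate pathway, was at 73.0, 69.5 and 69.4 CPM in Vectors, at 58.7, 55.7 and 56.5 CPM in FOXL2WT and at 57.4, 62.5 and 60.3 CPM in FOXL2C134W. Neither condition reached the Vectors range, and the log2 fold change was -0.31 (SE 0.052, adjusted p = 0.0013) in FOXL2WT and -0.23 (SE 0.051, adjusted p = 0.004) in FOXL2C134W. IDI1, which supplies the second building block of the isoprenoids, was at 106.5, 106.6 and 102.7 CPM in Vectors, at 89.4, 89.5 and 91.1 CPM in FOXL2WT and at 84.7, 88.4 and 85.7 CPM in FOXL2C134W. It had the smallest SE of the members, and its log2 fold change was -0.225 (SE 0.037, adjusted p = 0.0012) in FOXL2WT and -0.29 (SE 0.037, adjusted p = 4.4e-05) in FOXL2C134W.

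SQLE, which catalyses the oxygen-dependent step to squalene epoxide, was at 100.3, 96.8 and 103.1 CPM in Vectors, at 89.7, 89.0 and 94.1 CPM in FOXL2WT and at 81.9, 87.3 and 81.1 CPM in FOXL2C134W. It fell in FOXL2C134W by 0.26 on the log2 scale (SE 0.042, adjusted p = 0.00032). In FOXL2WT its log2 difference was -0.14 (SE 0.042, adjusted p = 0.06), which did not pass the test although the libraries did not overlap. FDFT1, which joins the 2 farnesyl units of squalene, was at 157, 168 and 162 CPM in Vectors, at 160.5, 165 and 163 CPM in FOXL2WT and at 156.5, 148.5 and 145 CPM in FOXL2C134W. Its log2 difference from Vectors was 0.01 in FOXL2WT, with a 95% confidence interval from -0.08 to 0.09, and -0.11 (adjusted p = 0.081) in FOXL2C134W. FDFT1 thus stayed within its Vectors range in FOXL2WT and lay just under it in FOXL2C134W.

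STARD4 was at 64.5, 66.4 and 62.3 CPM in Vectors, at 57.7, 58.8 and 56.5 CPM in FOXL2WT and at 54.7, 52.5 and 57.8 CPM in FOXL2C134W. Its log2 difference was -0.16 (SE 0.049, adjusted p = 0.06) in FOXL2WT and it fell by 0.23 (SE 0.048, adjusted p = 0.0036) in FOXL2C134W. SREBF2, the gene of the regulator itself, was at 94.97, 91.8 and 86.6 CPM in Vectors, at 82.5, 85.2 and 83.9 CPM in FOXL2WT and at 89.4, 95.6 and 89.9 CPM in FOXL2C134W. FOXL2C134W overlapped the Vectors range, with a log2 difference of 0.01 and a 95% interval from -0.09 to 0.11. FOXL2WT lay below it, with a difference of -0.12 (SE 0.050, adjusted p = 0.18).

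The calls in FOXL2C134W held in the 6 fits without a library for each of these 6 members. With DESeq2 and transcript length offsets HMGCS1 was no longer called in FOXL2C134W (-0.16, adjusted p = 0.18), and in FOXL2WT IDI1 (-0.17, adjusted p = 0.16) and INSIG1 (-0.235, adjusted p = 0.41) were not. The share of the short HMGCS1-204 given above enters these offsets, and its part was not tested.

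With FOXO1 added, the same comparison called 6 of 8 members lower in FOXL2WT+FOXO1, where 2.37% of all genes were called lower, and 6 of 8 in FOXL2C134W+FOXO1, where 5.16% were. The members called were HMGCS1, INSIG1, SQLE, IDI1, ABCA1 and STARD4 in both, and these 6 did not overlap with Vectors, beside 22.7% and 28.4% of all genes. ABCA1 was at 8.48, 8.96 and 8.95 CPM in FOXL2WT+FOXO1, a log2 fold change of -0.73 (SE 0.114, adjusted p = 0.00098), and at 6.23, 6.30 and 7.57 CPM in FOXL2C134W+FOXO1, a change of -1.12 (SE 0.115, adjusted p = 6.3e-06). These ABCA1 levels lay close to those of the same FOXL2 form without FOXO1. INSIG1 was at 35.9, 34.7 and 29.4 CPM in FOXL2WT+FOXO1 (-0.30, SE 0.072, adjusted p = 0.022) and at 27.5, 30.2 and 31.3 CPM in FOXL2C134W+FOXO1 (-0.47, SE 0.072, adjusted p = 0.00034).

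Among the enzymes, HMGCS1 was at 57.5, 61.9 and 62.3 CPM in FOXL2WT+FOXO1 and at 57.5, 59.3 and 63.6 CPM in FOXL2C134W+FOXO1, with log2 fold changes of -0.22 (adjusted p = 0.021) and -0.23 (adjusted p = 0.0064). IDI1 was at 88.7, 91.3 and 91.0 CPM and at 94.3, 91.8 and 94.6 CPM, with changes of -0.22 (adjusted p = 0.002) and -0.17 (adjusted p = 0.0061). SQLE was at 84.6, 86.1 and 88.2 CPM and at 89.5, 90.2 and 91.1 CPM, with changes of -0.21 (adjusted p = 0.0067) and -0.15 (adjusted p = 0.029). All of these libraries lay below Vectors. STARD4 was at 57.1, 54.5 and 56.2 CPM and at 56.8, 54.2 and 59.0 CPM, with changes of -0.20 (adjusted p = 0.024) and -0.18 (adjusted p = 0.021).

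FDFT1, at 171.5, 159 and 165 CPM in FOXL2WT+FOXO1 and 157.9, 162 and 154 CPM in FOXL2C134W+FOXO1, overlapped Vectors in both, as did SREBF2 at 89.1, 86.1 and 85.5 CPM and at 81.7, 92.4 and 89.7 CPM. Their log2 differences from Vectors ran from -0.07 to 0.03, and none passed the test (adjusted p between 0.52 and 0.81).

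Of these calls, those of ABCA1 and IDI1 in both conditions, SQLE in FOXL2WT+FOXO1, and HMGCS1 and INSIG1 in FOXL2C134W+FOXO1 held whichever library was left out, and others did not. In FOXL2WT+FOXO1, HMGCS1 was not called without Vectors A or without FOXL2WT+FOXO1 A (adjusted p of 0.12 and 0.083), INSIG1 not without Vectors A or FOXL2WT+FOXO1 C (0.13 and 0.12 adjusted p), and STARD4 not without Vectors A, Vectors B, FOXL2WT+FOXO1 B or FOXL2WT+FOXO1 C (adjusted p between 0.069 and 0.1). In FOXL2C134W+FOXO1, SQLE was called only when Vectors B was the library left out (adjusted p up to 0.13 otherwise), and STARD4 only without Vectors C or without FOXL2C134W+FOXO1 C (adjusted p up to 0.095 otherwise). With transcript length offsets, HMGCS1 went to -0.12 (adjusted p = 0.51) and INSIG1 stayed at -0.31 (adjusted p = 0.21) in FOXL2WT+FOXO1, and HMGCS1 went to -0.093 (adjusted p = 0.62), IDI1 to -0.18 (adjusted p = 0.09) and STARD4 to -0.14 (adjusted p = 0.49) in FOXL2C134W+FOXO1, all without a call. A fit of the compared groups only left the values in place but lost INSIG1 (adjusted p = 0.055) and STARD4 (adjusted p = 0.05) in FOXL2WT+FOXO1 and SQLE (adjusted p = 0.051) in FOXL2C134W+FOXO1. That SQLE call was also lost with all genes of at least 1 count (adjusted p = 0.086).

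**Figure D3:**
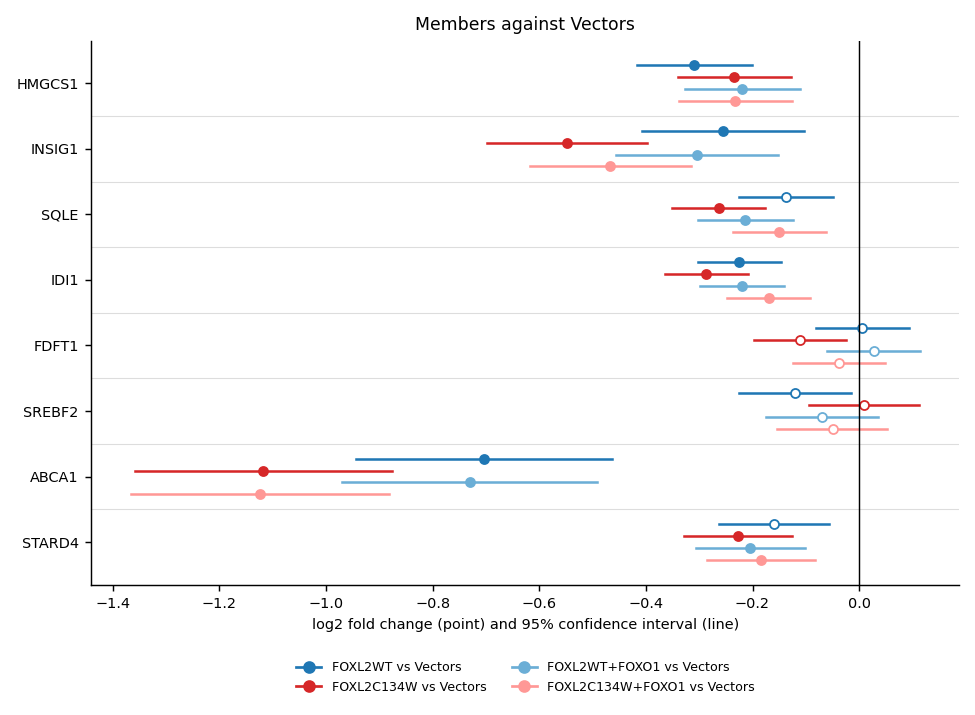
Log2 fold change of each member against Vectors in the 4 transfected conditions, with the 95% confidence interval as a line. Filled points passed the test at an adjusted p under 0.05 and open points did not. ABCA1 reached -1.12 in both FOXL2C134W conditions, while FDFT1 and SREBF2 lay between -0.12 and 0.03 without a call. The intervals of SREBF2 in FOXL2WT and of FDFT1 in FOXL2C134W did not reach 0.

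The comparison of FOXL2C134W with FOXL2WT, which asks what sets the tumor mutant apart, called 2 of the 8 members, both lower, against 4.12% of all genes called lower and 7.13% called higher. The share called lower was 1.37% without FOXL2WT B, 1.54% without FOXL2C134W B, 1.97% without FOXL2C134W C, 2.35% without FOXL2WT A and 6.09% at most, without FOXL2C134W A. INSIG1 fell by 18.4% in FOXL2C134W, a log2 fold change of -0.29 (SE 0.074, adjusted p = 0.015), and ABCA1 fell by 25.0%, a change of -0.41 (SE 0.123, adjusted p = 0.036). In both genes the 3 mutant libraries lay below the 3 wild-type libraries, by a narrow margin in ABCA1, where the highest mutant library had 7.60 CPM and the lowest wild-type library 7.72 CPM.

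Of the other members, SQLE (-0.13, adjusted p = 0.064), FDFT1 (-0.12, adjusted p = 0.078), SREBF2 (0.13, adjusted p = 0.11) and IDI1 (-0.06, adjusted p = 0.33) did not overlap in their libraries and did not pass the test. Over all genes, 30.4% did not overlap in this comparison. HMGCS1 and STARD4 overlapped, with adjusted p of 0.39 and 0.43. Neither call is firm. DESeq2 with transcript length offsets called neither gene (INSIG1 -0.22, adjusted p = 0.38, and ABCA1 -0.335, adjusted p = 0.3), and a fit of these 2 conditions alone kept INSIG1 but not ABCA1 (adjusted p = 0.08). A gene length offset in turn moved ABCA1 to -0.65 (adjusted p = 0.00072). INSIG1 was lost without FOXL2WT B (adjusted p = 0.085) or FOXL2C134W B (adjusted p = 0.065), and ABCA1 without FOXL2WT B (-0.30, adjusted p = 0.19), FOXL2WT C (adjusted p = 0.074), FOXL2C134W A (-0.305, adjusted p = 0.11) or FOXL2C134W B (adjusted p = 0.084). The mitochondrial share and the FOXL2 and SMAD3 levels given above moved with this comparison, and the part of the mitochondrial share was not tested.

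With FOXO1 in both arms, no member was called between FOXL2C134W+FOXO1 and FOXL2WT+FOXO1, where 0.144% of all genes were called. ABCA1 had a log2 difference of -0.39 (95% interval from -0.65 to -0.13, adjusted p = 0.21), close to its difference without FOXO1, and its libraries again did not overlap, beside 15.2% of all genes. INSIG1 had -0.16 (95% interval from -0.32 to -0.01, adjusted p = 0.35). Between FOXL2C134W+FOXO1 and FOXL2WT no member was called either, beside 1.69% of all genes, and ABCA1 had -0.42 (adjusted p = 0.084). In each of these comparisons, INSIG1 and ABCA1 were the 2 members with an unadjusted p of edgeR under 0.05, and DESeq2 called 0 members.

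Adding FOXO1 to either FOXL2 form, the step by which the study asks whether FOXO1 changes these profiles, gave no called member. SMAD3 RNA was lower with the FOXO1 plasmid, with log2 fold changes of -1.51 in the wild-type pair and -1.11 in the mutant pair. FOXL2 RNA was lower in the wild-type pair (-0.55). The effects of FOXO1 and of these lower levels cannot be told apart. In FOXL2WT+FOXO1 against FOXL2WT, where edgeR called 0.0505% of all genes, the members' log2 differences ran from -0.08 (SQLE) to 0.09 (HMGCS1). The widest 95% interval, that of ABCA1, ran from -0.28 to 0.23, or from -17.9% to 17.3%. In FOXL2C134W+FOXO1 against FOXL2C134W, where 0.714% of all genes were called, the differences ran from -0.06 (SREBF2) to 0.12 (IDI1). IDI1 (adjusted p = 0.18) and SQLE (0.11, adjusted p = 0.27) were higher in all 3 libraries with FOXO1 than in any without it, toward Vectors, but did not pass the test. Of all genes, 14% did not overlap in this comparison. The number of all genes called, 99, fell to 5 without FOXL2C134W B or without FOXL2C134W C and rose to 334 without FOXL2C134W A. Unadjusted p values under 0.05 were found for 2 members, IDI1 (0.0055) and SQLE (0.014), in this comparison and for none in the wild-type one, and DESeq2 called no member in either.

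The effect of FOXO1 in FOXL2C134W minus its effect in FOXL2WT (the interaction, called for 1.38% of all genes) was called for no member by edgeR or DESeq2, and SQLE was the 1 member with an unadjusted p under 0.05. SQLE had the largest such difference, 0.19 (SE 0.060, adjusted p = 0.14, with adjusted p from 0.1 to 0.32 over the alternatives). Its libraries with FOXO1 lay below those without in the wild-type pair and above them in the mutant pair. For ABCA1 the interaction was 0.02 with a 95% interval from -0.35 to 0.39. FOXO1 RNA was itself lower in FOXL2C134W+FOXO1 than in FOXL2WT+FOXO1 (log2 fold change -1.44). The interaction was also called for SMAD3 (0.41) and FOXL2 (0.60). The FOXL2 form and these unequal levels therefore cannot be told apart in the interaction.

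**Figure D4:**
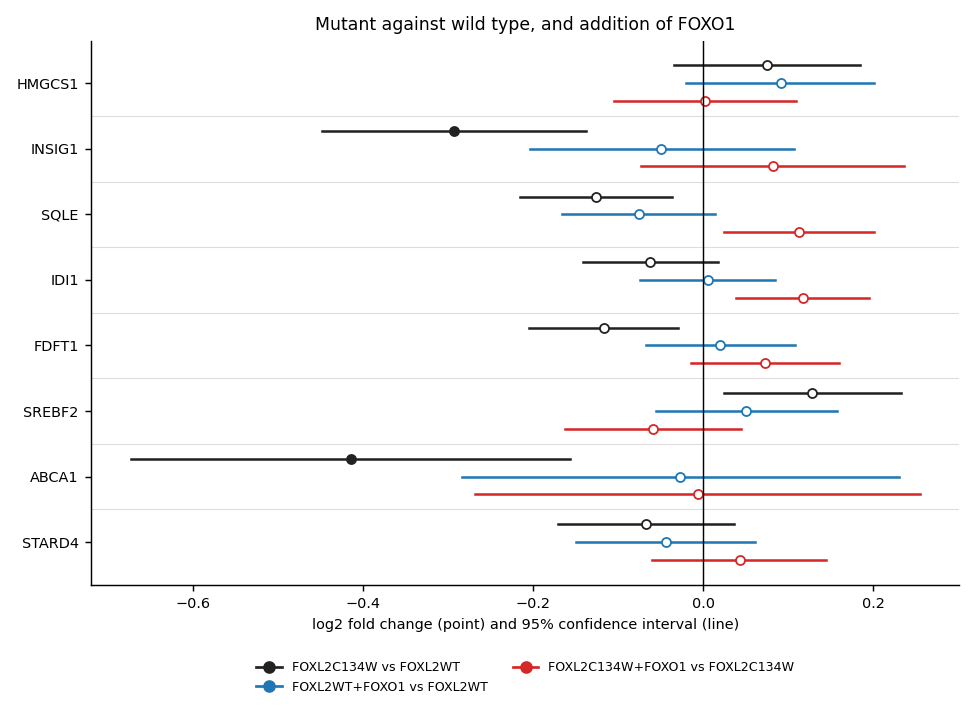
Log2 fold change of each member between FOXL2C134W and FOXL2WT (black), and after adding FOXO1 to FOXL2WT (blue) or to FOXL2C134W (red), with 95% confidence intervals as lines. Filled points passed the test, which only INSIG1 at -0.29 and ABCA1 at -0.41 did in the first comparison, and no point did after FOXO1 was added.

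The wider pathway was followed in 5 lists with 64 genes, all of them tested, to which the members belong. The lists were put together with earlier results of these data known, and some genes were taken out after the results were seen, so their counts and medians only describe the genes kept. Over all genes, 2.46% were called higher in FOXL2WT, 7.48% in FOXL2C134W, 1.41% in FOXL2WT+FOXO1 and 4.17% in FOXL2C134W+FOXO1 against Vectors, beside the 3.61%, 7.24%, 2.37% and 5.16% called lower. Of 20 genes of sterol synthesis, 7 were lower and none higher in FOXL2C134W than in Vectors, with a median log2 fold change of -0.12 beside 0.004 over all genes. The list holds 16 genes that are not members, and 4 of these were called: ACAT2, HSD17B7, MSMO1 and SC5D. In FOXL2WT, 2 of the 20 were lower, HMGCS1 and IDI1, with a median of -0.02. With FOXO1, 3 were lower in FOXL2WT+FOXO1 and 3 in FOXL2C134W+FOXO1, in both HMGCS1, IDI1 and SQLE, and none was higher in any of these.

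MSMO1, the sterol methyl oxidase, fell by 0.24 in FOXL2C134W against Vectors (adjusted p = 0.0071) and fell by 0.22 against FOXL2WT (adjusted p = 0.017), as the only gene of the sterol synthesis list called in the latter comparison. ACAT2, the cytosolic thiolase ahead of HMGCS1, had a log2 fold change of -0.185 in FOXL2C134W against Vectors (adjusted p = 0.014), lost without Vectors B (-0.155, adjusted p = 0.08). SC5D, the sterol desaturase, fell by 0.18 in FOXL2C134W (adjusted p = 0.04). The SC5D call was lost without any of the 6 libraries (adjusted p between 0.075 and 0.12), and the MSMO1 call against FOXL2WT without FOXL2WT A, FOXL2WT B or FOXL2C134W B (adjusted p of 0.08, 0.079 and 0.072). With transcript length offsets, neither MSMO1 call (adjusted p of 0.31 in both) nor that of SC5D (adjusted p = 0.78) held.

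Of 8 genes that control SREBP, 2 were called against Vectors in each of the 4 transfected conditions, INSIG1 and SREBF1, both lower, while the list median lay between -0.05 and 0.02. SREBF1, the gene of the sister factor SREBP1, had log2 fold changes of -0.51 (adjusted p = 0.0016) in FOXL2WT, -0.30 (adjusted p = 0.023) in FOXL2C134W, -0.42 (adjusted p = 0.011) in FOXL2WT+FOXO1 and -0.53 (adjusted p = 0.00056) in FOXL2C134W+FOXO1. It was thus lower with both FOXL2 forms, in contrast to SREBF2, which was called in none. SREBF1 lost its call without Vectors A in FOXL2C134W (adjusted p = 0.13) and in FOXL2WT+FOXO1 (adjusted p = 0.078), and in FOXL2C134W without FOXL2C134W B (adjusted p = 0.088). With transcript length offsets, SREBF1 was called only in FOXL2C134W+FOXO1 (adjusted p of 0.12, 0.53 and 0.21 in the others).

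Of 17 genes of uptake and transport inside the cell, 2 were higher and 4 lower in FOXL2C134W than in Vectors, and 1 was higher and 3 lower in FOXL2WT. As shares of all genes, 7.48% were called higher and 7.24% lower in FOXL2C134W, and 2.46% and 3.61% in FOXL2WT, so that 2 of 17 higher in FOXL2C134W lay near that share. VLDLR, a lipoprotein receptor, was higher in all 4 conditions, by 0.18 in FOXL2WT (adjusted p = 0.016), 0.17 in FOXL2C134W (adjusted p = 0.0079), 0.18 in FOXL2WT+FOXO1 (adjusted p = 0.022) and 0.24 in FOXL2C134W+FOXO1 (adjusted p = 0.0011). Other receptors differed. LRP1 was lower in FOXL2WT (-0.575, adjusted p = 0.0049), not called in FOXL2C134W (0.24, adjusted p = 0.15), and higher in FOXL2C134W than in FOXL2WT (0.82, adjusted p = 0.00017). LRP8 was called higher in FOXL2C134W (0.21) and not called in FOXL2WT (-0.08). The VLDLR call was lost without Vectors A or FOXL2WT B in FOXL2WT (adjusted p of 0.075 and 0.097), and in FOXL2WT+FOXO1 without Vectors A, B or C or FOXL2WT+FOXO1 A or C (adjusted p between 0.066 and 0.092). LIPA, the lysosomal acid lipase that frees cholesterol from its esters, was lower in all 4, most in FOXL2C134W (-0.33, adjusted p = 1.9e-05) and least in FOXL2WT (-0.14, adjusted p = 0.04, lost without any of the 6 libraries), and it was lower in FOXL2C134W than in FOXL2WT (-0.19, adjusted p = 0.0043). MYLIP, a ubiquitin ligase that removes lipoprotein receptors and an LXR target, was lower in FOXL2C134W (-0.60, adjusted p = 0.00029) and FOXL2C134W+FOXO1 (-0.66, adjusted p = 0.00019), and lower in FOXL2C134W than in FOXL2WT (-0.405, adjusted p = 0.011, 0.054 without FOXL2C134W C).

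Of 9 genes of efflux and LXR, ABCA1 was the only one called in FOXL2WT. LPCAT3, a phospholipid acyltransferase and LXR target, joined it in FOXL2C134W (-0.29, adjusted p = 0.0066), FOXL2WT+FOXO1 (-0.28, adjusted p = 0.029) and FOXL2C134W+FOXO1 (-0.38, adjusted p = 0.0016), and these 3 LPCAT3 calls were lost with transcript length offsets (adjusted p of 0.58, 0.18 and 0.15). In FOXL2WT+FOXO1 the LPCAT3 call was also lost without Vectors A, Vectors B or any FOXL2WT+FOXO1 library (adjusted p between 0.059 and 0.18). The list median was -0.15 in FOXL2C134W and -0.17 in FOXL2WT. ABCG1, another sterol exporter, had a lower fitted value than ABCA1 in FOXL2C134W (-1.49), but with at most 12 counts in any library it did not pass the test, and it is named after its value was seen. Of 10 fatty acid genes driven by SREBP1, 3 were lower in FOXL2WT, 3 lower and 1 higher in FOXL2C134W, 1 lower in FOXL2WT+FOXO1 and 3 lower in FOXL2C134W+FOXO1. The 1 of 10 higher lay near the 7.48% of all genes called higher in FOXL2C134W, where 7.24% were called lower. SCD, the stearoyl-CoA desaturase, was lower in all 4 conditions, with log2 fold changes between -0.58 (FOXL2C134W, adjusted p = 3.1e-06) and -0.39 (FOXL2WT+FOXO1, adjusted p = 0.00053). FADS2, a fatty acid desaturase, fell in FOXL2WT (-0.22, adjusted p = 0.0085, 0.063 without Vectors A and 0.059 without FOXL2WT B), in FOXL2C134W (-0.28, adjusted p = 0.00046) and in FOXL2C134W+FOXO1 (-0.27, adjusted p = 0.0011).

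FASN, the fatty acid synthase, went the other way and was higher in FOXL2C134W than in Vectors (0.26, adjusted p = 0.017) and than in FOXL2WT (0.49, adjusted p = 0.00029). The first of these FASN calls was lost without Vectors B, Vectors C or FOXL2C134W B (adjusted p between 0.051 and 0.086), and its sign turned with transcript length offsets (-0.05).

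**Figure D5:**
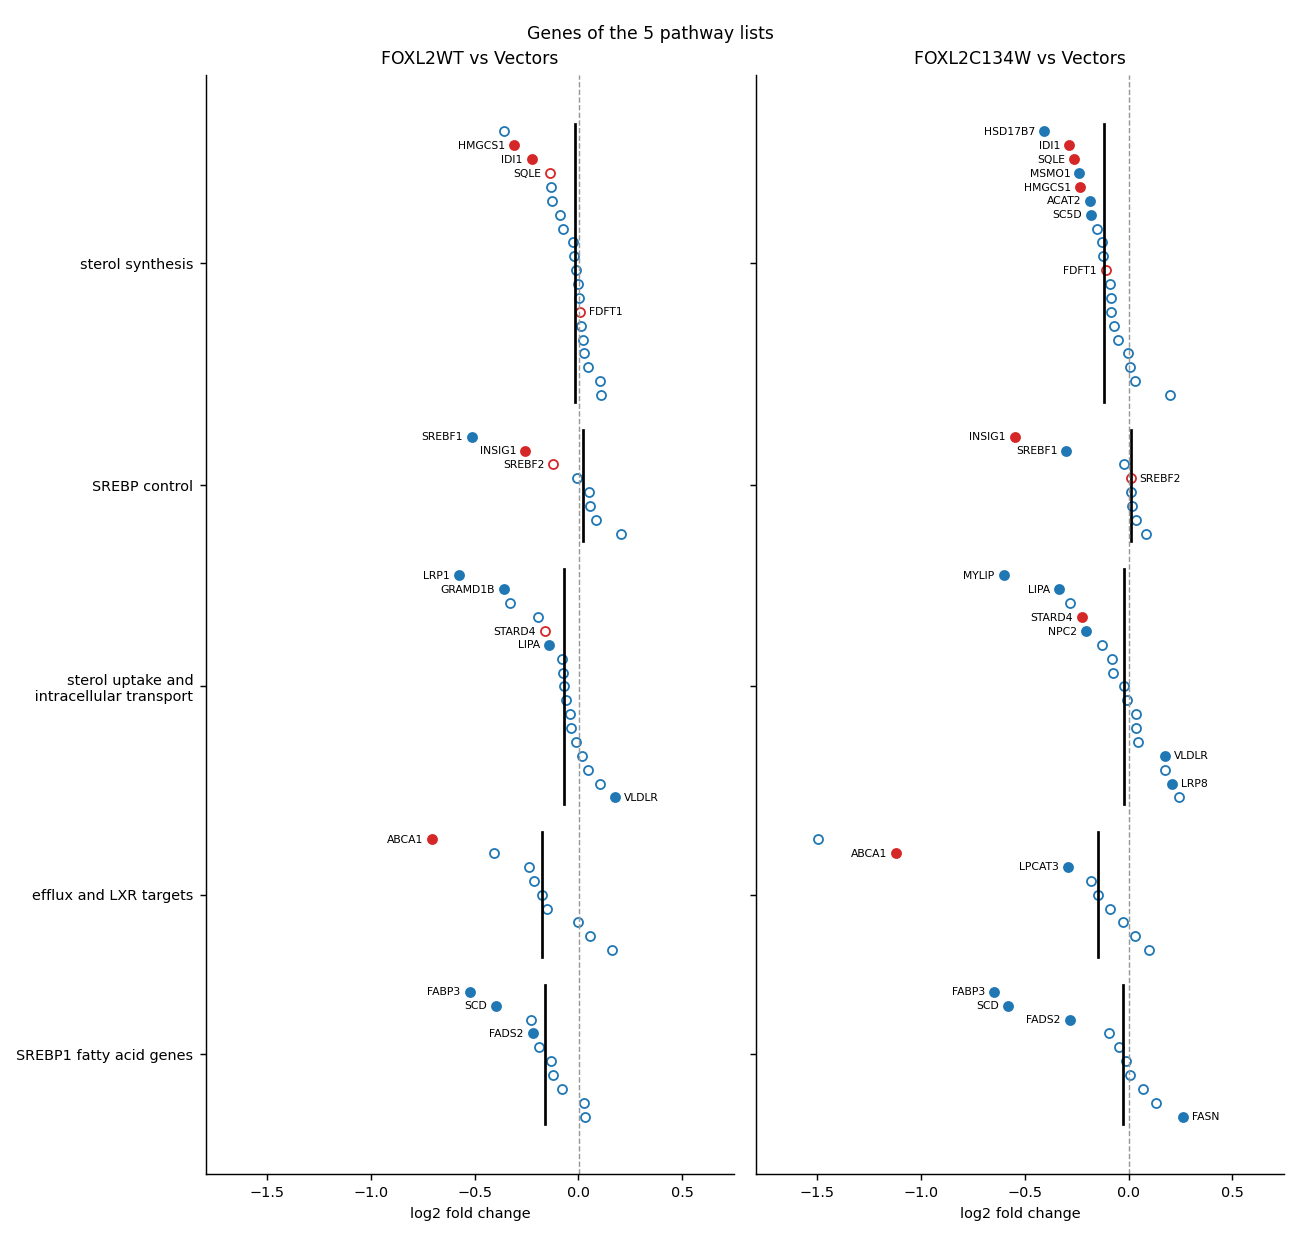
Log2 fold change against Vectors of the genes of the 5 pathway lists in FOXL2WT and FOXL2C134W, a gene to a row, with the 8 members in red and the other genes in blue. Filled points passed the test, these and the members are named, black bars give the median of a list and the dashed line the median of all genes tested, and ABCA1, at -0.70 and -1.12, has the lowest value of the genes that passed, while the open point at -1.49 in FOXL2C134W is ABCG1.

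Over the 15 libraries, the members differed in the company they kept. The closest pair was ABCA1 with INSIG1 (Pearson r = 0.90 of log2-CPM), followed by IDI1 with SQLE (r = 0.89) and HMGCS1 with IDI1 (r = 0.84). SREBF2 with FDFT1 gave the lowest, -0.32. Among all tested genes, those most like ABCA1 were GBP4 (r = 0.97), CXCL2 (r = 0.96) and TENT5A (r = 0.96), and those most like INSIG1 were CCL5 (r = 0.96), OASL (r = 0.93) and SARAF (r = 0.93). IDI1 was closest to RAB11A (r = 0.96), HSPA5 (r = 0.95) and PDIA3 (r = 0.95), HMGCS1 to WWTR1 (r = 0.95), ITGA1 (r = 0.93) and NRP1 (r = 0.925), SQLE to NFE2L3 (r = 0.92), TM9SF2 (r = 0.91) and SLC44A1 (r = 0.90), and STARD4 to C1S (r = 0.92), TNFAIP8 (r = 0.91) and EID1 (r = 0.905).

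FDFT1 was closest to PRDX4 (r = 0.93), ATRAID (r = 0.93) and MRPL53 (r = 0.92). For SREBF2 no gene came closer than NECTIN1 (r = 0.82), followed by LTBP2 (r = 0.815) and COL13A1 (r = 0.81). These correlations describe 15 libraries that share 5 conditions and their depth, and no p is attached.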

How the data were processed

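RNA of 15 HGrC1 cultures was read as 75-bp single-end reads of stranded poly(A) libraries. The authors estimated transcript abundance with Salmon 1.1.0 on hg38, and the deposited gene table holds their estimated counts for 37787 genes, rounded, without normalization, of which 15042 were 0 in every library. The deposited transcript tables hold the TPM values and estimated read counts of 227063 transcripts by the authors' run. The GENCODE release was not given in the sources used here. TPM served to compare levels between genes, for transcript shares, and to weight the transcript lengths behind the transcript length offsets and the gene length offset.

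Samples were grouped by their titles. In R 4.3.3, edgeR 4.0.16 (filterByExpr, TMM, quasi-likelihood test, all 15 libraries, 1 term per condition) tested 13868 genes in 10 comparisons, Benjamini-Hochberg over all of them. The SE is the log2 fold change divided by the root of F, log2-CPM used a prior count of 2, and tables were made in Python 3.11.15 with pandas 2.3.3. Replicates differed by more than counting noise (chi-square per gene of 2.21 to 8.84), which sets the precision. The fit was tested on simulated data. Alternatives were DESeq2 1.42.0, alone or with transcript length offsets, its size factors in edgeR, 2 filters, the compared groups only, a replicate block, a gene length offset and leaving out each library. The members and lists were chosen with earlier results of these data known. Beyond the members, at most 3 genes per list are named, those called in the most of the 10 comparisons, ties by the smaller adjusted p between FOXL2C134W and FOXL2WT, and for each member the 3 genes with the highest Pearson r. Some genes of the lists are not reported here and were left out of them after the results were seen. HSD17B7, ABCG1, LRP1, LRP8 and the markers are named outside that rule, after their values were seen.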

Additional observations from a re-analysis of the deposited data

Results flagged for a closer look

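No member met a rule for a closer look, and groups of 3 libraries were not tested for outliers. Among the genes of the pathway lists, 2 had an effect of FOXO1 that differed between the FOXL2 forms by the interaction test of edgeR. The levels of FOXO1, SMAD3 and FOXL2 RNA also differed between the arms, and their part cannot be told apart from that of the FOXL2 form. LRP1, a lipoprotein receptor, had an interaction of -0.807 (SE 0.159, adjusted p = 0.016): FOXO1 gave a log2 difference of 0.40 in FOXL2WT and -0.41 in FOXL2C134W, neither of which passed the test alone. LRP1 stands outside the naming rule and was chosen after its value was seen. FASN had an interaction of -0.427 (SE 0.103, adjusted p = 0.048), from 0.17 in FOXL2WT and -0.26 in FOXL2C134W. The FASN interaction was lost in 9 of the 12 fits that left out a library (adjusted p up to 0.16), and in 3 of 8 other settings: -0.194 with transcript length offsets (adjusted p = 0.89), and with the compared groups only (adjusted p = 0.078) or the gene length offset (adjusted p = 0.07).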

How the results depend on the processing

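Of the 72 log2 fold changes of single genes, the fits that left out a library kept direction and call in 357 cases, lost the call in 80, gained it in 2 and turned the sign in 5. The other settings kept 524, lost 36, gained 6 and turned 10. ABCA1 against Vectors was called in all of them in FOXL2WT and FOXL2C134W. DESeq2 with transcript length offsets called 2 members, not 4, in FOXL2WT against Vectors, 3, not 6, in FOXL2C134W+FOXO1 against Vectors and 0, not 2, in FOXL2C134W against FOXL2WT, where a fit of the compared groups only called 1. Between FOXL2C134W+FOXO1 and FOXL2WT, 1 member was called in place of 0 with these offsets (HMGCS1), with all genes of at least 1 count (ABCA1) and with the gene length offset (ABCA1). Leaving out a library gave 0 to 2 called members in FOXL2C134W against FOXL2WT, with 0 without FOXL2WT B or without FOXL2C134W B, and 3 to 6 in FOXL2WT+FOXO1 against Vectors, with 3 without Vectors A.

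Signs turned for FDFT1, SREBF2 and FASN. For FDFT1, FOXL2WT against Vectors gave -0.038 with transcript length offsets, -0.026 with the gene length offset and -0.017 to 0.033 without a library, and FOXL2WT+FOXO1 gave -0.035 with transcript length offsets and -0.0 to 0.053 without a library. For SREBF2, transcript length offsets gave 0.034 in FOXL2WT, -0.024 in FOXL2C134W, 0.027 in FOXL2WT+FOXO1 and 0.036 in FOXL2C134W+FOXO1 against Vectors, and -0.058 in FOXL2C134W against FOXL2WT. The last of these stood beside 0.13 in the edgeR fit. SREBF2 in FOXL2C134W against Vectors was -0.027 with the gene length offset and -0.023 to 0.04 without a library. With transcript length offsets, FASN was -0.05 in FOXL2C134W against Vectors, beside a called 0.26 in the edgeR fit (adjusted p = 0.017). The cause was not tested. Correlations of same-letter deviations from the condition means ran from -0.164 to 0.166. No pairs of unlike letters were set beside them, so these values cannot decide whether the letters pair the cultures. With a replicate block, 3 members instead of 4 were called in FOXL2WT against Vectors, INSIG1 being lost (adjusted p = 0.053), and the counts of members called in the other comparisons did not move.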
